A study of Mus musculus with 6 samples.

Results

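Hepcidin, the liver hormone encoded by Hamp, and 8 genes that take up, carry, store, export or sense iron were described in mouse liver and liver tumour. The 9 genes were Hamp, Tfrc, Tfr2, Slc40a1, Fth1, Ftl1, Trf, Cp and Hfe, and a probe counted as a member when its symbol, read from its description or its accession, was one of these names. Hamp was chosen by its low ratio on the tumour arrays, and the other 8 were added for their role in iron handling, so the tumour ratios of Hamp are given as a description with no test. Of the 9541 genes that a probe symbol named on the arrays, 8 were members, with 1 probe each among 20868 probes. No probe carried the symbol Fth1.

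The RNA came from 39-week-old mice of the C3H/HeNCrlBR background, and was compared on 6 Agilent 2-colour arrays in 3 pairs with Cy3 and Cy5 swapped within each pair. The 4 kinds of RNA were liver tumour of wild-type (WT) mice given diethylnitrosamine (DEN) and phenobarbital (PB), liver of CAR-KO mice given DEN and PB, liver of CAR-KO mice labelled as given DEN without PB, and liver of WT mice given DEN and PB. The titles of the third kind name DEN alone, while the treatment protocol speaks of PB for mice of both genotypes, and the grouping here follows the titles. DEN is a liver carcinogen and every mouse had received it, and PB, taken with the drinking water, promotes the growth of initiated cells. CAR, the product of Nr1i3, is the nuclear receptor through which PB acts. The pairs compared WT tumour with CAR-KO liver, CAR-KO liver after DEN-PB with CAR-KO liver after DEN, and CAR-KO liver with WT liver. Tumour and CAR-KO liver of the first pair therefore differ in both genotype and tissue, and tumour was compared with WT liver only indirectly, through the CAR-KO liver that each was hybridised with. DEN-PB CAR-KO liver RNA lay on all 6 arrays and is shared by every comparison. The labels give neither the sex nor the number of mice behind an RNA, nor whether the arrays of a pair held separate extracts, so a p-value here covers only how far swapped arrays differ, which may be technical.

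Hepcidin is a small peptide that hepatocytes secrete when iron is plentiful or during inflammation. It binds ferroportin, the only known cellular iron exporter of mammals, encoded by Slc40a1, and makes cells degrade it, so that less iron enters the plasma. A pair of signals is known to raise Hamp transcription in hepatocytes: the bone morphogenetic protein (BMP) and SMAD pathway, which uses the co-receptor hemojuvelin (Hjv) and is tuned by Hfe and Tfr2, and interleukin 6 acting through STAT3.

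The promoter of Hamp is shown because both signals are known to act on it. Hamp lies on the minus strand of chromosome 7, at chr7:30942368-30944029 in the GRCm38.p6 assembly of RefSeq. The scanner files name no genome build, and this position comes from RefSeq alone. The 250 bases before its start, chr7:30944030-30944279 on the minus strand, follow 5′ to 3′, with capitals on the letters GGCGCC, the core of known BMP responsive elements, and on a match to TTCNNNGAA, the STAT motif.
Hamp promoter: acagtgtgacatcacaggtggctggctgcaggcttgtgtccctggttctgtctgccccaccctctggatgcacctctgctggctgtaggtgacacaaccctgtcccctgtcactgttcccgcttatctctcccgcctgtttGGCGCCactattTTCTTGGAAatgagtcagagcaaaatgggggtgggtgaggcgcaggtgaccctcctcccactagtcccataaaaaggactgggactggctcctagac
GGCGCC began 109 bases before the start and the STAT match 97 bases before it, and they did not overlap. Both motifs read the same on either strand, and both strands were searched in the 250 bases before each start. Over those 250 bases GGCGCC occurred in 9.59% of the 32851 RefSeq promoters and TTCNNNGAA in 7.02%. RefSeq held promoters for 6 of the members, 10 in all. GGCGCC was also found in 1 of the Tfrc promoters, and the STAT motif in no other member's promoter. A match is a description of the letters and not of binding.

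Every member probe was well above background in all 12 channels, none was saturated and no spot was missing. Ratios below are log2 ratios after background correction and loess normalization within each array, turned so that a positive value means higher in the RNA named first, and levels are normalized log2 intensities per channel. Levels of different genes are not compared, since each probe has its own brightness. Fitted ratios come from limma on all 6 arrays with a dye effect per probe, and called means a p below 0.05 after Benjamini-Hochberg adjustment for every probe in the fit. Where 1 array of a pair was left out, the array that remained was corrected by a dye effect from the other pairs. The fitted ratio can then differ, even in sign, from the ratio of that array itself. Median signals per array were 186.5 to 493.5 in Cy3 and 129.4 to 417.9 in Cy5, and local background medians were 53 to 62 on 5 arrays. Array 2 of the tumour pair came from a different scanner, with background medians of 288 and 299. The 5 measured hepatocyte markers (Ttr, Apoa1, Apoa2, Fabp1, Hnf4a) were well above background in all channels and the labelled tissue was not contradicted. The Nr1i3 probe had ratios of -1.08 and -0.49 in CAR-KO over WT liver, but the files do not say where it lies relative to the deletion, so it checks nothing.

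Hamp had its lowest level in WT tumour, at 10.53 and 10.17. In CAR-KO liver after DEN-PB it ran from 12.17 to 12.50 over 6 channels (mean 12.32 ± 0.12, SD). In CAR-KO liver after DEN it was 12.04 and 11.71, and in WT liver it was 11.56 and 11.47. The order from high to low was thus CAR-KO liver after DEN-PB, CAR-KO liver after DEN, WT liver and WT tumour, and no channels of one RNA overlapped those of another. The 6 channels of DEN-PB CAR-KO liver sat on the same arrays as the other RNAs and are not 6 separate livers. This order describes the probe and was not tested as a whole.

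**Figure D1:**
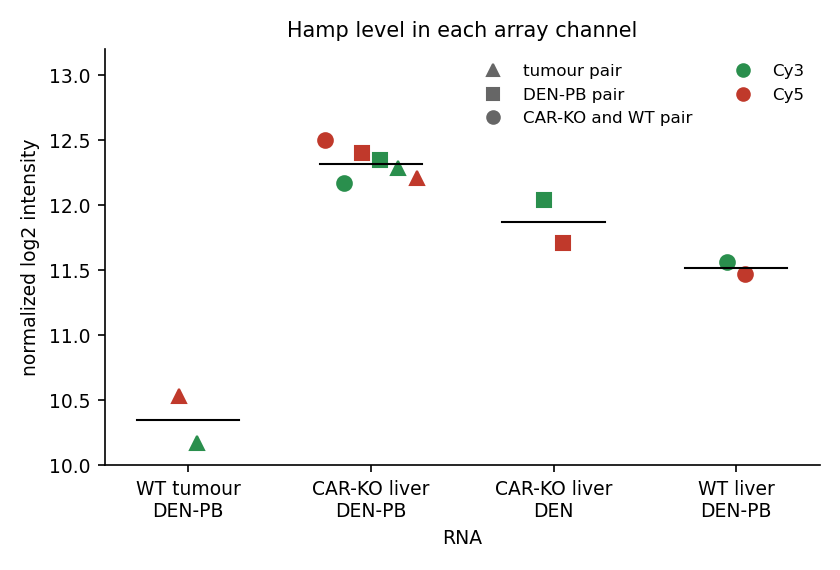
Normalized log2 intensity of the Hamp probe (vertical axis) in each array channel, by RNA. Symbols mark the array pair, colours the dye, and lines the mean. The 2 tumour channels lie at 10.53 and 10.17, and the 6 channels of DEN-PB CAR-KO liver at 12.17 or above.

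On the tumour arrays Hamp had log2 ratios of WT tumour over CAR-KO liver of -1.76 and -2.04, with a fitted value of -1.90 ± 0.17 (SE), a 3.73-fold lower signal in tumour. It ranked 15 from the lowest among the 20744 probes. This is the contrast that chose Hamp, so the rank is a description. With each array only centred on its median in place of loess, the ratios were -0.76 and -1.74 and the fitted value was -1.25. Against WT liver, the indirect ratio of WT tumour was -1.08 ± 0.24 (SE), or -0.29 with median centring. Fewer hepatocytes in a sample and less Hamp RNA per hepatocyte cannot be told apart in these bulk RNAs. The 5 hepatocyte markers had fitted ratios of WT tumour over CAR-KO liver from -0.57 to -0.12, with a median of -0.26 and none called. Their mean log2 level was 12.29 to 12.31 in WT tumour, 12.47 to 12.60 in DEN-PB CAR-KO liver, 12.21 to 12.53 in DEN CAR-KO liver and 12.36 to 12.37 in WT liver. Their part in the Hamp result was not tested.

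In CAR-KO over WT liver, both after DEN-PB, Hamp had log2 ratios of 0.94 and 0.70. The fitted ratio was 0.82 ± 0.17 (SE), a 1.76-fold higher signal with a 95% interval of 0.42 to 1.21, but limma did not call it (adjusted p = 0.462, unadjusted p = 0.00165). Both arrays were positive, also with median centring, where they lay further apart, at 1.56 and 0.35. In the main fit 0.0916% of all probes had a larger fitted ratio. Hamp was chosen for being low in tumour against this same DEN-PB CAR-KO liver RNA. Its p-value, rank and calls here, and those in DEN-PB over DEN, are therefore not independent of that choice. Across the other ways of processing the ratio stayed between 0.70 and 0.96, and it was called in 4 of 15, with adjusted p from 0.0249 to 1. Those 4 were array weights, the pair's arrays fitted alone, and the fits without tumour array 1 or without tumour array 2, which leave the value as it is and change the estimate of its spread.

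In CAR-KO liver after DEN-PB over DEN, Hamp had log2 ratios of 0.36 and 0.64. The fitted ratio was 0.50 ± 0.17 (SE), and limma did not call it (adjusted p = 1, unadjusted p = 0.0205), nor did any of the 15 alternatives. It was 0.77 without array 1 of the pair, 0.23 without array 2 and 0.78 with median centring. Over all probes the turned ratios of both arrays of this pair ran against each other (Pearson r = -0.347 over 20744 probes), against 0.391 in the tumour pair and 0.0294 in the CAR-KO and WT pair. The arrays of the CAR-KO and WT pair thus shared next to no pattern over all probes, which limits its ratios too. The labels give the arrays of the DEN-PB pair opposite dyes. An exchanged dye label on either would turn the sign of every ratio on it. A dye effect per probe, such as the fit allows for, also enters the turned ratios of swapped arrays with opposite signs. Neither was tested. With arrays that ran against each other, the DEN-PB pair does not settle the direction of DEN-PB over DEN. It does not settle the place of DEN CAR-KO liver in the order of levels either. Each array is therefore given separately for every member in this comparison, with its sign as the labels have it. On array 2 of the pair 25.9% of the probes as bright as Hamp had a higher ratio than Hamp, against 3.91% on array 1.

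No member was called in CAR-KO over WT liver, where 0.101% of the 20743 probes tested were called (2 higher and 19 lower). Besides Hamp, only Cp had an unadjusted p under 0.05, beside 471 probes in all. The members' median log2 ratio was 0.17, against 0.02 over all probes. None was called in DEN-PB over DEN, where 0% of 20742 probes were called, 565 probes had an unadjusted p under 0.05, and Hamp, Trf and Ftl1 were among them. The members' median there was 0.28, against -0.01 over all probes. Between WT tumour and CAR-KO liver 3.36% of 20744 probes were called, 2.53% higher and 0.839% lower. Hamp was past that threshold, which says nothing of it because this contrast chose it, and of the other 7 members none was called. Of these 7, Tfrc, Tfr2 and Ftl1 had an unadjusted p under 0.05, beside 4858 probes in all. In the indirect ratio of WT tumour over WT liver 0% of 20743 probes and no member were called, with 1737 probes at an unadjusted p under 0.05.

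**Figure D2:**
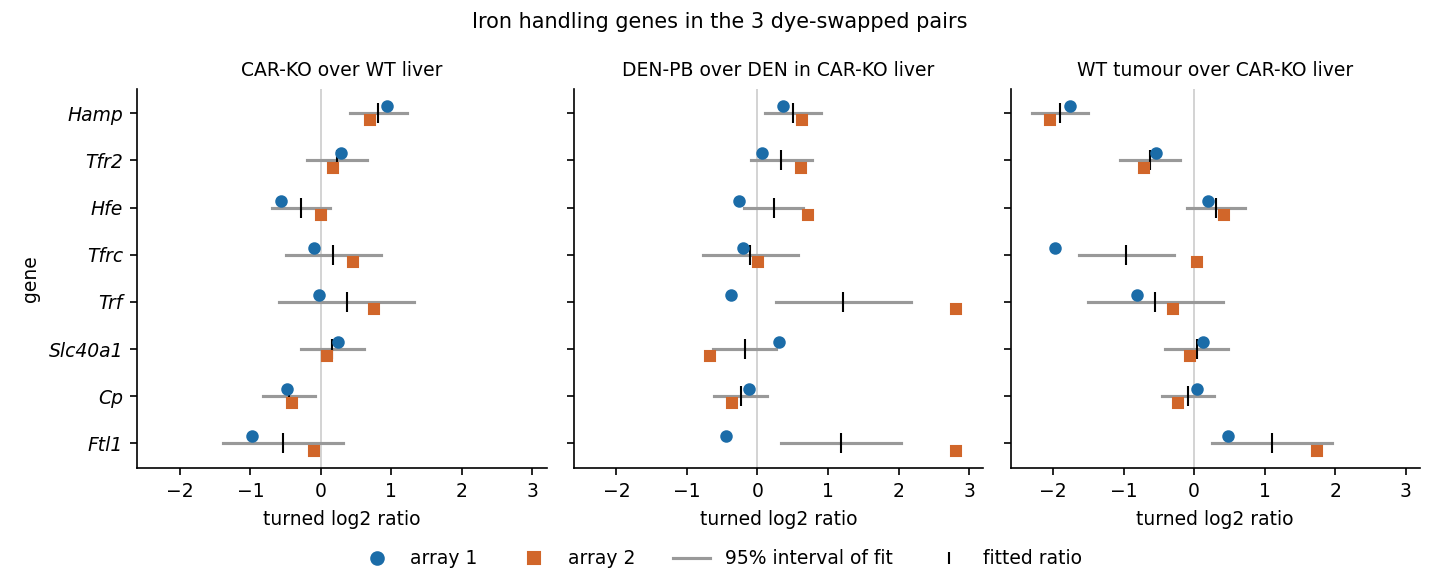
Turned log2 ratios (horizontal axis) of the 8 measured genes (vertical axis) on array 1 and array 2 of each pair, with the fitted ratio and its 95% interval. Hamp lies on one side of 0 on both arrays of each pair, and Trf and Ftl1 reach 2.81 and 2.82 on array 2 of the DEN-PB pair while they are below 0 on array 1.

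Tfr2 encodes transferrin receptor 2, a sensor of iron-loaded transferrin on hepatocytes that feeds into the BMP and SMAD control of hepcidin. It lies at chr5:137569822-137588081 (GRCm38.p6). Its log2 level was 10.54 and 10.60 in WT tumour, 11.01 to 11.36 in DEN-PB CAR-KO liver, 11.14 and 10.39 in DEN CAR-KO liver, and 11.08 and 10.86 in WT liver. The tumour channels lay below those of DEN-PB CAR-KO liver and of WT liver, while DEN CAR-KO liver spanned them. Its WT tumour over CAR-KO liver ratios were -0.54 and -0.71, with a fitted ratio of -0.62 ± 0.18 (SE), which limma did not call (adjusted p = 0.118). With median centring the arrays split, at 0.40 and -0.40, and the fitted ratio was -0.0018. In CAR-KO over WT liver it had 0.28 and 0.17 (fitted 0.23 ± 0.18, adjusted p = 1), and DEN-PB over DEN gave 0.06 and 0.62. Tfr2 thus had the same sign as Hamp on all 6 arrays after loess, with smaller ratios. With median centring it did so on 4 of the 6, the exceptions being tumour array 1 and array 2 of the CAR-KO and WT pair.

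Hfe encodes the membrane protein mutated in classic human hereditary haemochromatosis, which binds transferrin receptors and is needed for a full hepcidin response. It lies at chr13:23702034-23710854. Its log2 level was 8.89 and 8.95 in WT tumour, 8.32 to 8.70 in DEN-PB CAR-KO liver, 8.67 and 7.60 in DEN CAR-KO liver and 9.02 and 8.54 in WT liver. The tumour channels were above all 6 of DEN-PB CAR-KO liver and between those of WT liver. The ratios of WT tumour over CAR-KO liver were 0.19 and 0.43, a fitted ratio of 0.31 ± 0.18 (SE, limma adjusted p = 0.329), opposite in sign to Hamp and Tfr2. With median centring it was 0.65 and was called (adjusted p = 0.0418), while without tumour array 1 it was 0.04 (adjusted p = 0.981). CAR-KO over WT liver gave -0.56 and 0.00, so the arrays differed by more than the fitted value of -0.28 ± 0.18. DEN-PB over DEN gave -0.26 and 0.72, with opposite signs on the arrays (fitted 0.23 ± 0.18, adjusted p = 1).

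Tfrc encodes transferrin receptor 1, which takes iron-loaded transferrin into cells and is abundant on red cell precursors and dividing cells. It lies at chr16:32608896-32632794, and its probe was the dimmest of the members, with a mean log2 signal of 6.49. WT tumour over CAR-KO liver gave -1.97 and 0.04, so the fitted -0.96 ± 0.29 (SE, limma adjusted p = 0.122) rests on array 1. The level behind it was 7.96 in CAR-KO liver on that array, while the other 5 DEN-PB CAR-KO channels ran from 6.14 to 6.86. In WT tumour Tfrc was at 5.99 and 6.18, in DEN CAR-KO liver at 6.51 and 6.45, and in WT liver at 6.59 and 6.41. Without tumour array 1 the fitted ratio was -0.15 (limma adjusted p = 0.898), and without tumour array 2 it was -1.78 (adjusted p = 0.000198). CAR-KO over WT liver gave -0.10 and 0.45, and DEN-PB over DEN gave -0.21 and 0.00, with no call. Of 7 measured erythroid markers 5 had a negative ratio of WT tumour over CAR-KO liver (median -0.55), and 1 was called, the alpha globin gene Hba-a1 (-1.10 and -1.08, adjusted p = 0.0138). The mean log2 level of the 7 was 7.19 to 7.21 in WT tumour, 7.33 to 7.88 in DEN-PB CAR-KO liver, 7.46 to 7.52 in DEN CAR-KO liver and 7.35 to 7.42 in WT liver, and their part in the Tfrc values was not tested.

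Trf encodes transferrin, the plasma carrier of iron that hepatocytes secrete, and lies at chr9:103208876-103230286. Its probe was very bright, with a mean log2 signal of 13.83. In WT tumour over CAR-KO liver Trf had ratios of -0.81 and -0.29, a fitted ratio of -0.55 ± 0.41 (SE, limma adjusted p = 0.445). Its sign was not stable, since it was 0.17 with median centring, where the arrays gave 0.38 and -0.04. It was 0.19 without tumour array 2 and -1.29 without tumour array 1. These 2 values follow the dye correction from the other pairs, and after loess both tumour arrays were negative. In CAR-KO over WT liver it had -0.03 and 0.76, so the arrays did not share a sign. In DEN-PB over DEN the arrays were further apart, at -0.38 and 2.81, and the fitted 1.22 ± 0.41 was not called (adjusted p = 1).

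Ftl1 encodes ferritin light chain, a subunit of the shell that stores iron inside cells, and lies at chr7:45457944-45459886. WT tumour over CAR-KO liver gave 0.48 and 1.74, both higher in tumour, with a fitted ratio of 1.11 ± 0.36 (SE) that limma did not call (adjusted p = 0.139). It was called with median centring, at 1.76 (limma adjusted p = 0.0235). After the dye correction from the other pairs it was 1.51 without tumour array 2 and 0.70 without tumour array 1. Its log2 level was 11.60 and 12.35 in WT tumour, 10.60 to 11.12 in DEN-PB CAR-KO liver, 11.23 and 8.14 in DEN CAR-KO liver and 11.71 and 11.20 in WT liver. The tumour channels lay above the 6 of DEN-PB CAR-KO liver and overlapped those of WT liver. CAR-KO over WT liver gave -0.98 and -0.10 (fitted -0.54 ± 0.36, adjusted p = 1), lower in CAR-KO liver on both arrays but by unlike amounts. Without array 1 of that pair the fitted ratio was -1.23 and without array 2 it turned to 0.16. These values follow the dye correction from the other pairs, while each array's own ratio was negative. DEN-PB over DEN gave -0.44 and 2.82, with opposite signs on the arrays (fitted 1.19 ± 0.36, adjusted p = 1). The probe of Ftl2-ps, a ferritin light chain pseudogene of near-identical sequence, had like ratios. They were 0.61 and 1.40 for WT tumour over CAR-KO liver, -0.30 and 2.89 in DEN-PB over DEN, and -0.77 and -0.23 in CAR-KO over WT liver. Signals of such copies may mix on these arrays. No probe sequences were available, so signal from related genes was not checked for any member, Hamp included. A probe described only as ferritin heavy chain, with no symbol, had ratios of 0.44 and 0.07 for WT tumour over CAR-KO liver, -0.17 and 0.27 in DEN-PB over DEN, and -0.01 and 0.10 in CAR-KO over WT liver, and was not called in any.

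The large DEN-PB over DEN ratios of Trf and Ftl1 came from 1 array. On array 2 of that pair the mean scanner signal of Trf was 12590 for DEN-PB RNA in Cy3 and 1767 for DEN RNA in Cy5, and on array 1 it was 25890 for DEN-PB RNA and 14340 for DEN RNA. For Ftl1 the signals were 1559 and 217.7 on array 2, and 2463 and 1659 on array 1, in the same order. On array 2, 49 probes had a ratio over 2.5 and 0 a ratio under -2.5, while array 1 had 0 of either. Of the probes as bright as Trf and Ftl1 on array 2, 0.980% and 0.287% had a higher ratio. Without array 2 the fitted ratio, after the dye correction from the other pairs, was -0.05 for Trf and 0.09 for Ftl1.

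**Figure D3:**
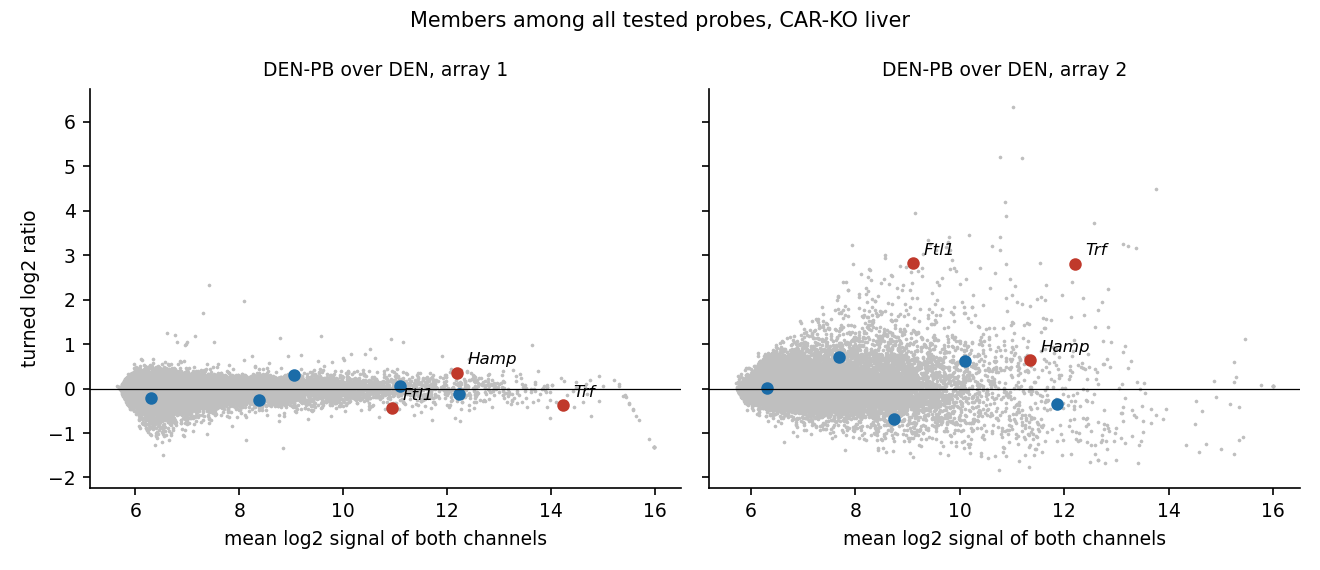
Turned log2 ratio of DEN-PB over DEN (vertical axis) against the mean log2 signal of both channels (horizontal axis) for all tested probes (grey) and the 8 members (coloured) on array 1 and array 2 of the pair. Trf and Ftl1 lie at 2.81 and 2.82 on array 2, where 49 probes are above 2.5, and below 0 on array 1.

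Slc40a1 encodes ferroportin, the target of hepcidin, and is made by hepatocytes and above all by macrophages. It lies at chr1:45908070-45926532, and its probe was matched by accession, since its description carries an older name. Its log2 level was 9.05 and 9.08 in WT tumour, 8.71 to 9.34 in DEN-PB CAR-KO liver, 9.03 and 9.45 in DEN CAR-KO liver and 8.63 and 8.63 in WT liver. Only the WT liver channels lay apart from the rest. The tumour arrays gave ratios over CAR-KO liver of 0.13 and -0.06, a fitted ratio of 0.04 ± 0.19 (SE, limma adjusted p = 0.926) with a 95% interval of -0.41 to 0.49. After loess the ratio of Slc40a1 was within its error of 0 in the comparison where the Hamp signal was 3.73-fold lower. With median centring the tumour arrays gave 0.69 and 0.18. Over the 15 alternatives the fitted ratio ran from -0.16 to 0.43, and none was called. Hepcidin is known to act on the protein, which these arrays do not measure. The ratios of CAR-KO over WT liver were 0.24 and 0.08, and DEN-PB over DEN gave 0.31 and -0.68, with opposite signs on the arrays. Of 6 macrophage markers 3 had positive and 3 negative ratios of WT tumour over CAR-KO liver, with a median of 0.10, none called and mean log2 levels of 7.80 to 8.06 in WT tumour, 7.67 to 7.95 in DEN-PB CAR-KO liver, 7.75 to 7.91 in DEN CAR-KO liver and 7.75 to 7.86 in WT liver.

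Cp encodes ceruloplasmin, the plasma ferroxidase that helps load exported iron onto transferrin and is also an acute phase protein. It lies at chr3:19956933-20009750. Its log2 level was 12.24 and 12.01 in WT tumour, 12.19 to 12.36 in DEN-PB CAR-KO liver, 12.33 and 12.72 in DEN CAR-KO liver and 12.72 and 12.68 in WT liver. WT liver lay above all 6 channels of DEN-PB CAR-KO liver, and the tumour channels fell within or below the range of those 6. CAR-KO over WT liver gave -0.49 and -0.41, a fitted ratio of -0.45 ± 0.16 (SE) that limma did not call (adjusted p = 1, unadjusted p = 0.0241), opposite in sign to Hamp on the same arrays. WT tumour over CAR-KO liver gave 0.04 and -0.23, and with median centring the fitted ratio turned to 0.59 (adjusted p = 0.0342). DEN-PB over DEN gave -0.13 and -0.36 and was not called, and with median centring the arrays split, at 0.53 and -0.47.

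Outside the members, 72 genes of hepcidin control, iron and haem handling and the acute phase had a probe. Between WT tumour and CAR-KO liver 2 were called higher in tumour and 4 lower, beside the 3.36% of all probes. In CAR-KO over WT liver, DEN-PB over DEN and the indirect ratio none was called. In that order 2, 8 and 11 of the 72 had an unadjusted p under 0.05, beside 471 of 20743, 565 of 20742 and 1737 of 20743 probes. In the BMP and SMAD list 1 of 18 measured genes was called in WT tumour over CAR-KO liver, with a list median of 0.02 against -0.01 over all probes. It was Hjv, the BMP co-receptor needed for normal hepcidin levels, at 0.71 and 0.99 and a fitted ratio of 0.85 ± 0.17 (SE, limma adjusted p = 0.0402). Hjv was higher in tumour on both arrays, the opposite of Hamp, and was called in 4 of the 15 alternatives, over which it ran from 0.58 to 1.06 (adjusted p from 0.00541 to 0.300). Bmp6, the main BMP ligand for hepcidin in liver, gave 0.39 and 0.06 (adjusted p = 0.448). Smad7, an inhibitor and target of the pathway, gave -0.33 and -0.32 (adjusted p = 0.380). A probe described as inhibitor of DNA binding 1, a known BMP target, gave -0.15 and -0.02 (adjusted p = 0.809). Neither of these target genes was called, and the part of the pathway in the Hamp ratios was not tested. Tmprss6, which cleaves hemojuvelin, and Stat3 were not analysed here.

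In the IL6 and STAT3 list 1 of 7 measured genes was called in WT tumour over CAR-KO liver, and the list median was -0.11. It was Il6 itself, at -0.95 and -0.60 with a fitted ratio of -0.78 ± 0.15 (SE, limma adjusted p = 0.0425), from a dim probe with a mean log2 signal of 7.15. It was called in 5 of the 15 alternatives, with ratios from -1.05 to -0.50. Il6ra, the receptor subunit that binds it, gave -0.11 and -0.14 (adjusted p = 0.684). Among 12 acute phase genes 1 was called higher and 3 lower, beside 2.53% and 0.839% of all probes, and the median was -0.24. The serum amyloid genes Saa1 (-1.11 and -0.67, adjusted p = 0.0383) and Saa2 (-0.87 and -0.93, adjusted p = 0.0247) were lower in tumour, as was the fibrinogen gamma chain gene Fgg (-1.46 and -1.24, adjusted p = 0.00806). Orm2, which encodes an acid glycoprotein, was higher (0.53 and 1.22, adjusted p = 0.0297). Saa1 and Saa2 are near copies whose signals may mix. Saa1 was called by limma in 4 of the 15 alternatives, Saa2 in 6, Fgg in 13 and Orm2 in 5. Without either array of the DEN-PB pair, or without either array of the CAR-KO and WT pair, the fitted ratios of Il6, Saa1, Saa2, Orm2 and Hjv were the same and none of these 5 genes was called, while Fgg was. Without tumour array 1 Hjv (0.64) and Orm2 (0.84) were not called, and without tumour array 2 Saa1 (-0.66) was not. In DEN-PB over DEN 11 of the 12 acute phase genes had positive fitted ratios, with a median of 0.37 and none called, but array 1 alone gave positive ratios for 3 of them and array 2 for 11. Their mean log2 level was 10.79 to 11.00 in DEN-PB CAR-KO liver, and 10.09 and 10.98 in DEN CAR-KO liver, so 1 of the DEN channels lay below that range. In CAR-KO over WT liver 8 of the 12 were negative, with a median of -0.16, where Hamp was positive.

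The other lists held no called gene in WT tumour over CAR-KO liver. Their medians were 0.04 for 9 genes of iron transport, 0.26 for 5 genes of storage, iron chaperones and iron responsive element binding, 0.07 for 6 genes of haem binding and breakdown, 0.26 for 6 genes of haem synthesis and 0.06 for 11 genes of mitochondrial iron and iron-sulphur clusters. Hp and Hpx, which bind free haemoglobin and haem in plasma, stand in both the haem and the acute phase list and had fitted ratios of -0.04 ± 0.29 and -0.03 ± 0.26 (SE). Of the 39 cell type markers 2 were called in that comparison, both lower, beside 3.36% of all probes called and 0.839% called lower. They were Hba-a1 and Dcn, which encodes the matrix protein decorin (-1.01 and -1.66, limma adjusted p = 0.0159). Without either array of the DEN-PB pair neither was called, at the same fitted ratios of -1.09 for Hba-a1 and -1.34 for Dcn.

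**Figure D4:**
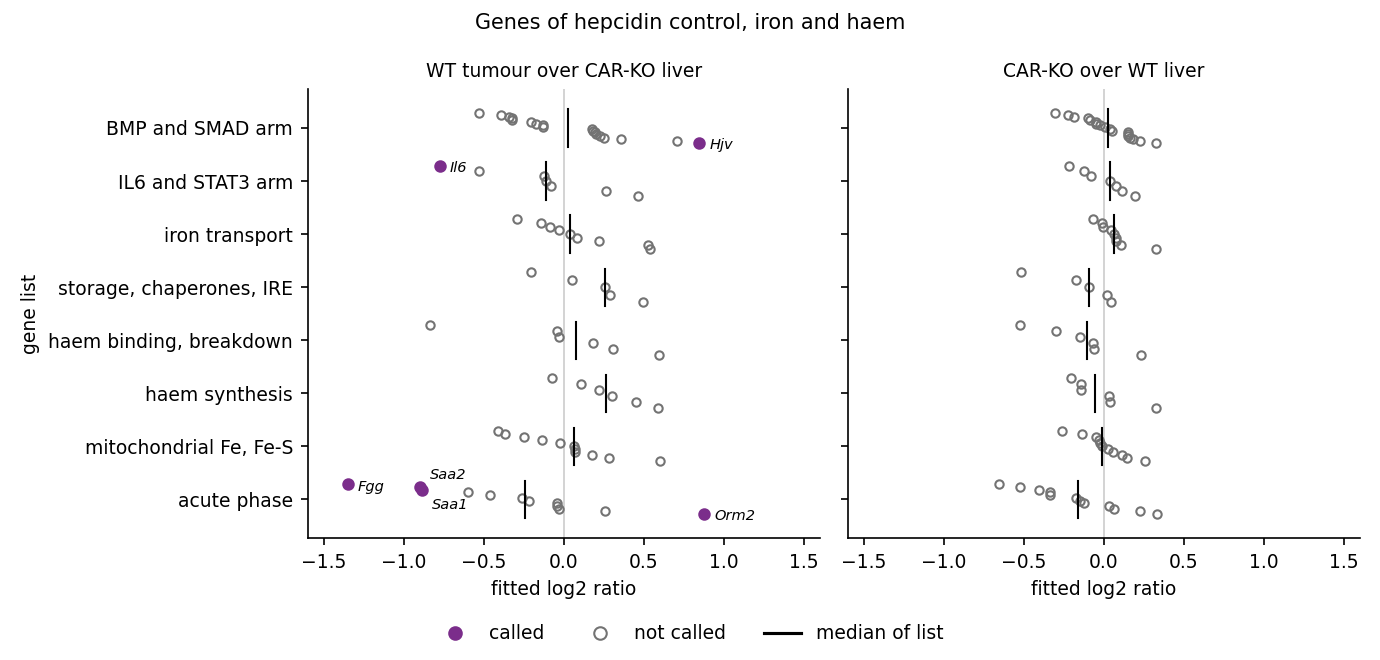
Fitted log2 ratios (horizontal axis) of the genes of each list (vertical axis) in WT tumour over CAR-KO liver and in CAR-KO over WT liver, with called genes filled and named and a line at each list's median. All 6 called genes are in the tumour panel, 2 right and 4 left of 0.

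The genes whose 6 ratios lay nearest to those of Hamp were found by root mean square difference, among probes of 1 gene symbol well above background in both channels on all 6 arrays. They were Gldc (0.352), a glycine cleavage enzyme, Got1 (0.405), the cytosolic aspartate aminotransferase, Nnmt (0.407), which methylates nicotinamide, Ces1e (0.407), a carboxylesterase, and Mug1 (0.424), a plasma protease inhibitor. All 5 were low in WT tumour over CAR-KO liver on both arrays, with ratios from -2.06 for Ces1e to -1.25 for Nnmt, and positive in CAR-KO over WT liver, from 0.22 for Nnmt to 0.83 for Ces1e. In DEN-PB over DEN not all shared the positive sign of Hamp: array 1 ranged from -0.25 for Ces1e to 0.10 for Got1, below the 0.36 of Hamp, and array 2 from -0.27 for Mug1 to 1.01 for Got1. Being chosen for their likeness over these arrays, they are a description with no test. None of the other 7 members was among them.

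**Figure D5:**
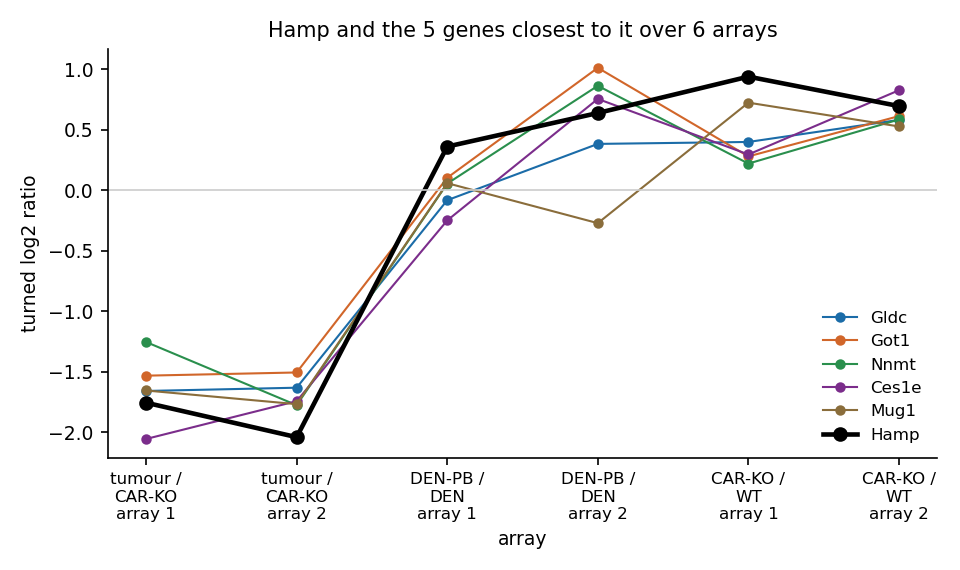
Turned log2 ratios (vertical axis) of Hamp and the 5 genes nearest to it on the 6 arrays (horizontal axis). All 6 genes lie at -1.25 or below on the tumour arrays and at 0.22 or above on the CAR-KO over WT arrays.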

How the data were processed

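The deposited scanner files hold, per spot, mean signals and local background medians, which are intensity readings without normalization. Processed intensity values in the same files were made by the authors with Agilent Feature Extraction, 7.1.1 on 5 arrays and 7.5.1 on array 2 of the tumour pair per the file headers (7.5 per the submitters' processing notes). The deposited log10 ratio column and value table are identical and are red over green. Spot flags, deposited in columns of their own (other kinds of value), were used as given.

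In limma 3.58.1 (R 4.3.3), normexp with an offset of 50 removed background from the mean signals and loess normalized each array. Control spots had no weight, outlier-flagged spots were missing, and spots of a probe were averaged. Tested probes had a channel well above background on 2 or more arrays. The fit had 2 residual and 5.48 prior degrees of freedom, and all tests are 2-sided. The fit was tried on simulated data with independent noise and changes larger than any member's fitted ratio. That trial says nothing of smaller changes or of patterns shared across an array. The number of arrays limits the precision. Channel levels were made comparable with Aquantile. Symbols came from the RefSeq table by accession (8947 probes) or description, for 9691 probes in all.

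The genes, the lists and the rule for named genes were chosen with earlier results of these data known. The rule named all measured members, up to 6 called genes per list, direct hepcidin regulators, Nr1i3 and the 5 genes most like Hamp. Alternatives covered background, normalization, filters, array weights, the dye effect, the arrays fitted and each array left out.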

Additional observations from a re-analysis of the deposited data

How the results depend on the processing

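Over 15 alternatives, Hamp kept its sign in all 4 comparisons. In CAR-KO over WT liver it ran from 0.70 to 0.96 and was called with array weights and with the arrays of the pair alone (0.82 in both), and its range with each array left out was 0.70 to 0.94. The count of called members was then 1 with array weights and 1 with the arrays alone, and 0 to 1 with each array left out, against 0. With median centring Hamp was -1.25 in WT tumour over CAR-KO liver and -0.29 in the indirect ratio. Cp turned to 0.59 in WT tumour over CAR-KO liver with median centring. Called members there were 5 with median centring (Hamp, Tfrc, Ftl1, Cp and Hfe), 0 with Agilent processed signals and 1 to 3 with each array left out, against 1, and in the indirect ratio 0 to 1 with each array left out. Of 420 recomputed values of the other 7 members, 25 changed sign, 7 were called and 1 did both.

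Counts over all probes moved more. In CAR-KO over WT liver they were 0 with Agilent processed signals, 95 with array weights, 87 with the arrays alone and 4 to 94 with each array left out, against 21. In DEN-PB over DEN they were 1 with both channels well above background on all arrays, 1 with array weights and 0 to 6 with each array left out, against 0. In WT tumour over CAR-KO liver they were 4133 with median centring, 0 with Agilent processed signals, 289 with a normexp offset of 16, 236 with array weights, 62 with the arrays alone and 285 to 4708 with each array left out, against 698. The share called higher there was 75.1%, against 57.3% with median centring and 38.2% without tumour array 2, the array of the different scanner. In the indirect ratio they were 47 with median centring and 0 to 2164 with each array left out, against 0. The cause of these differences was not tested.

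A fit with 1 array left in a pair assumes that this array varies like the others, and takes its dye effect from the other pairs. Each member had a single probe, so the alternative of another probe gave no value. No alternative moved the median of all probes by more than 0.1. Loess and median centring both bring the ratios of each array close to 0, so this median could hardly move. The share of spots well above background was 84.4% to 98.7% per channel, lowest in Cy5 of array 2 of the DEN-PB pair.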
